A study of Rattus norvegicus with 6 samples.

Results

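The genes described here encode protein and lipid kinases, protein phosphatases and the subunits, scaffolds and inhibitors that attach to them. They were picked by symbol alone: every named gene on the array beginning with Mapk, Map2k to Map4k, Cdk and a digit, Prk, Pik3, Camk, Csnk, Stk, Rps6k, Dyrk, Ppp1 to Ppp6, Ptp, Dusp or Ppm1, with the mitotic kinase Cdk1 left out. This gave 91 members among 3158 named genes and 7180 features in all, a feature being a gene or a clone that carries no single gene name. No Dyrk gene was among them. RNA of JA, JB and Amy, cell lines from reflux-induced esophageal tumors of the rat, was hybridized to 2-colour cDNA arrays against a mixture, in equal parts, of Normal1 and Normal2, a pair of normal rat esophageal cell lines. Each tumor line had 2 arrays with the dyes exchanged, called here its Cy3 and Cy5 array by the dye it carried, and the same pool served as the control throughout. The labels give no treatment, passage, clone or animal for any line, so each tumor line stands for a single source.

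Every value is a log2 ratio of tumor line over normal pool, and 1 unit is a 2-fold difference. The titles name the line before the pool, which makes this direction likely, but no label settles it, and the log base is taken as 2. Were the ratios the other way round, every higher and lower call, every rank from highest to lowest and every fold below would exchange its direction. A ratio compares line and pool for a gene, so levels of different genes cannot be set against each other. Within a line the 2 arrays repeat the same RNA pair and were averaged; array values are given with the Cy3 array before the Cy5 array. A gene was called where the mean of the 3 lines differed from 0 at an adjusted p under 0.05 (limma, Benjamini-Hochberg over 7180 features). Means are given with the SD over the 3 lines (n = 3). The pool counts as a single control sample whose own spread is outside the test, and the p-values measure only the spread between these lines.

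Kinases attach phosphate to proteins or lipids and phosphatases take it off, so the activity of a pathway depends on the balance of the enzymes and on the subunits that hold them in place. In the MAP kinase cascade, a kinase kinase kinase phosphorylates a MAP kinase kinase, which phosphorylates a MAP kinase, and dual-specificity phosphatases remove the phosphate from that last step. Protein phosphatases of the PP1, PP2A and calcineurin type have few catalytic subunits and many regulatory ones, which decide the substrate. In squamous epithelium these pathways carry growth factor, stress and contact signals. The arrays measured RNA, not phosphorylation or enzyme activity.

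**Figure D1:**
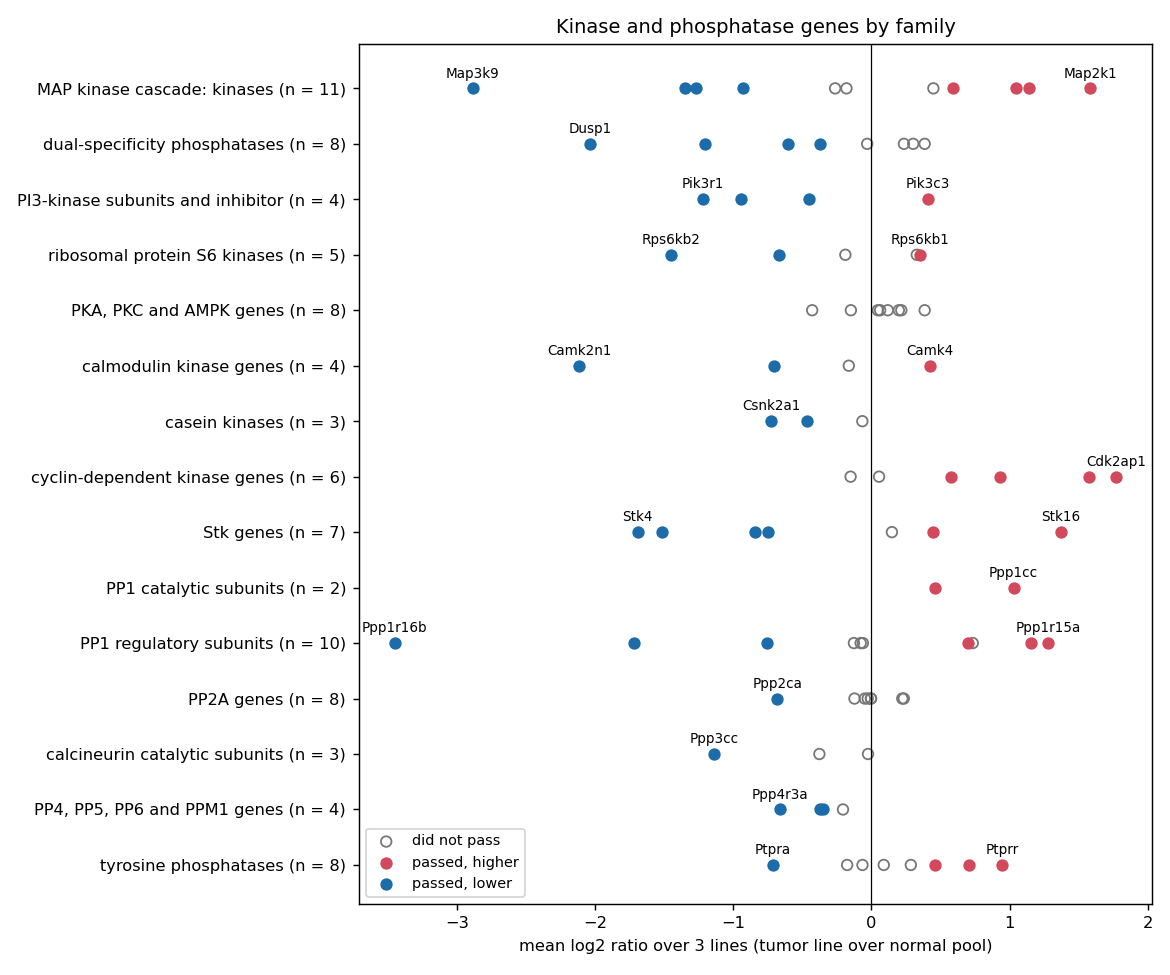
Each point is 1 of the 91 members, placed at its mean log2 ratio over the 3 lines (horizontal axis, tumor line over normal pool) in the row of its family. Filled points passed the test and open points did not, and names mark the lowest and highest passing member of a row. Most families hold members on both sides of 0, from Ppp1r16b at -3.45 to Cdk2ap1 at 1.77.

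Of the 91 members, 51 (56.0%) were called, against 53.5% of all features. The 21 members called higher (23.1%) stood beside 20.7% of all features, and the 30 called lower (33.0%) beside 32.8%. The median member stood at -0.06 and the median feature at -0.12, and the median size without sign was 0.45 for members and 0.50 for features. The members as a group thus lay close to the background of the array, and the account below is of named genes within it. The family and list counts below were not tested against these background shares. With each array centred on its median over features, which had run from -0.17 to -0.05, 25 members were higher and 24 lower. Of the 51 calls, 45 had 1 sign on all 6 arrays, as had 50 of the 91 members in all (54.9%) and 55.9% of features. The count of calls fell to 28 when JA was left out, to 45 when JB was and to 38 when Amy was. Over all features the 3843 calls fell likewise, to 2076, 3698 and 2701 in the same order. Of 38 members counted as kinases, the pseudokinase Stk40 among them, 12 were higher and 13 lower. Of 25 catalytic phosphatases 5 were higher and 8 lower. Among regulatory subunits and inhibitors, 1 of 8 on the kinase side was higher and 4 were lower, and 3 of 18 on the phosphatase side were higher and 5 lower. In bulk RNA of this kind, fewer cells that express a gene and less RNA per cell cannot be told apart.

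The cultures and the pool differed in more than signaling genes. Of fibroblast markers, 12 of 14 measured were lower and 1 higher, with a list median between -3.43 and -2.79 on the 6 arrays; 8 of 9 leukocyte markers were lower and 1 higher (between -3.67 and -3.28), and 6 of 7 muscle markers were lower (between -2.78 and -1.46). Neural markers had 4 of 14 higher and 5 lower, with array medians between -0.19 and 0.18 and a median of line means of -0.22. Of 9 genes on the epithelial list, 2 were higher, P-cadherin (Cdh3) and Spr, which encodes sepiapterin reductase and is no squamous marker, and 4 were lower, with array medians between -0.90 and 0.31. Galectin-7 (Lgals7), a marker of stratified epithelium, was the lowest of them at -5.82 ± 1.005. Keratin 8 (Krt8), at 0.41 ± 0.40, did not pass, and Krt5, Krt14, Cdh1 and the leukocyte marker Ptprc were not measured as named genes. The part of these differences in the results below was not tested.

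Sequences from the RefSeq promoter table of rat assembly GRCr8 (250 bases before to 50 after the gene start) were matched for 78 of the 91 members. The following 4 are printed to show promoters that share response element letters while their genes did not share a direction, and that of Cdk4, a member with 3 matches of 1 motif. The cAMP response element, written TGACGTCA and searched on both strands, is the site bound by CREB and ATF factors; it is in capitals in the first 3. It occurred in the promoters of Dusp1 (chr10:17184603-17184902, plus strand), which was lower, of Ppp1r15a (chr1:105139547-105139846, minus strand), which was higher, and of Dusp11 (chr4:119942518-119942817, minus strand), which did not pass. The E-box CACGTG, searched likewise and known as a site of Myc, is in capitals in the promoter of Cdk4 (chr7:64771203-64771502, plus strand), which was higher.
Dusp1: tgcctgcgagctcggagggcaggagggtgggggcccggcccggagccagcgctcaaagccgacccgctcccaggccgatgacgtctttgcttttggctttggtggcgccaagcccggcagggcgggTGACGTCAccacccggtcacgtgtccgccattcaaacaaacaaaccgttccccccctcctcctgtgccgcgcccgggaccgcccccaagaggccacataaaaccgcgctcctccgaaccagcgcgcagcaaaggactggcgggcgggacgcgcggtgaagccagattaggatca
Ppp1r15a: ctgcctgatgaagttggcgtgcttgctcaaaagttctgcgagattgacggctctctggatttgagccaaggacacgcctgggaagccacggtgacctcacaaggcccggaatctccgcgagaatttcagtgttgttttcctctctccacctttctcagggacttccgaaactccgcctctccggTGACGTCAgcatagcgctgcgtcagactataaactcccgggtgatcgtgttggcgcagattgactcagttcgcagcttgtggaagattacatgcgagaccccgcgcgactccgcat
Dusp11: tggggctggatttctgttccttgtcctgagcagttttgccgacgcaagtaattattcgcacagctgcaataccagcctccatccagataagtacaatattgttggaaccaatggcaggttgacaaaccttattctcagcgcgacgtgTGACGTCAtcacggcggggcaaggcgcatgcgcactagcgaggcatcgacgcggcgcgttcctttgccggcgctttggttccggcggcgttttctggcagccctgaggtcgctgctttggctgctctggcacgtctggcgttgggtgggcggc
Cdk4: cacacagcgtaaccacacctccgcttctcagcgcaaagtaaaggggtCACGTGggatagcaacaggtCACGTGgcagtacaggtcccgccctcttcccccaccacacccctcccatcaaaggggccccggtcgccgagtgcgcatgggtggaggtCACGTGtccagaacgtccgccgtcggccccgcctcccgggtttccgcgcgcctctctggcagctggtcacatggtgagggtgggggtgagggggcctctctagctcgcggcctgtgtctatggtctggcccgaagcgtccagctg

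The full response element began 124 bases before the gene start in Dusp1, 66 in Ppp1r15a and 103 in Dusp11. It was present in 1 of 18 promoters of members called higher (5.56%), in 2 of 25 of those called lower (8.0%) and in 2 of 35 of those not called (5.71%), against 1.83% of all 33469 promoters. The other members with it were Ppp2ca, which was lower, and Ppp2r2d, which did not pass. Cdk4 held 3 E-boxes, 203, 183 and 95 bases before its start, and 6.42% of all promoters held at least 1. E-boxes were found for 1 higher, 3 lower and 3 uncalled members, Dusp1 among the lower ones. A match describes letters only and shows no binding. All promoters are every entry of the promoter table, while each member gave 1 promoter. The members are also named genes of the array, so these shares compare unlike sets.

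The MAP kinase cascade was divided between higher and lower members. Of its 11 measured kinases 4 were higher, 4 lower and 3 uncalled, and the family's median was -0.18. The shares over all features were 20.7% higher and 32.8% lower. The kinase directly above ERK, Map2k1 (MEK1), was higher: its ratios were 1.78 and 2.0 (JA), 1.30 and 1.46 (JB) and 1.46 and 1.5 (Amy). All 6 arrays exceeded a 2-fold ratio, the mean was 1.58 ± 0.27 (adjusted p = 0.00122), and its 2 clones stood at 1.52 and 1.65. Mapk6 (ERK3), an atypical MAP kinase with no activation loop of the usual form, stood at 1.25 and 1.29 (JA), 1.34 and 0.92 (JB) and 0.95 and 1.07 (Amy), with a mean of 1.14 ± 0.13 (adjusted p = 0.00176). Its partner kinase Mapkapk5 rose less, to 0.59 ± 0.21 (adjusted p = 0.0169), a call lost without JA (adjusted p = 0.0963).

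The JNK-directed kinase Map3k9 (MLK1) was the lowest kinase of all, with ratios of -2.61 and -3.29 (JA), -2.49 and -2.95 (JB) and -3.06 and -2.93 (Amy). Its mean was -2.89 ± 0.15 (adjusted p = 0.000129) and all 6 arrays were beyond 2-fold. The related Map3k12 (DLK), which acts on the same branch, went the other way, at 1.48 and 1.14 (JA), 1.13 and 0.78 (JB) and 0.75 and 0.99 (Amy), with a mean of 1.04 ± 0.23 (adjusted p = 0.00334). Both kept their calls without any single line. Map3k1 (MEKK1) was lower at -1.59 and -1.53 (JA), -1.39 and -1.47 (JB) and -1.09 and -1.02 (Amy), a mean of -1.35 ± 0.26 (adjusted p = 0.00186). Its clones differed in size, at -2.0 and -0.70, while all 6 arrays of each were below 0. Map3k3 (MEKK3), which feeds the ERK5 branch, fell to -0.93 ± 0.19 (adjusted p = 0.00386), its clones standing at -0.70 and -1.16.

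Map4k3, a kinase of the uppermost tier, was lower as well, with -1.16 and -0.18 (JA), -1.69 and -1.59 (JB) and -1.63 and -1.38 (Amy). The Cy5 array of JA stood apart from the other 5, and the mean was -1.27 ± 0.53 (adjusted p = 0.00709). Map4k4, of the same tier, was above 0 in JB and below it in the others: -0.61 and -0.52 (JA), 0.28 and 0.53 (JB) and -0.47 and -0.30 (Amy). Its mean of -0.18 ± 0.52 did not pass (adjusted p = 0.511); without JB it was -0.47 (adjusted p = 0.0482). Map2k5 (MEK5), the kinase above ERK5, stood at 0.69 (JA), -0.01 (JB) and 0.66 (Amy), with a mean of 0.45 ± 0.40 (adjusted p = 0.0885); without JB it was 0.68 (adjusted p = 0.0131), without the Cy3 array of JB 0.54 (0.0341), and over the Cy5 arrays alone 0.77 (0.0284). The p38 kinase Mapk14 stood at -0.11 and -0.55 (JA), -0.60 and -0.40 (JB) and -0.14 and 0.23 (Amy) and did not pass at -0.26 ± 0.28 (adjusted p = 0.191).

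**Figure D2:**
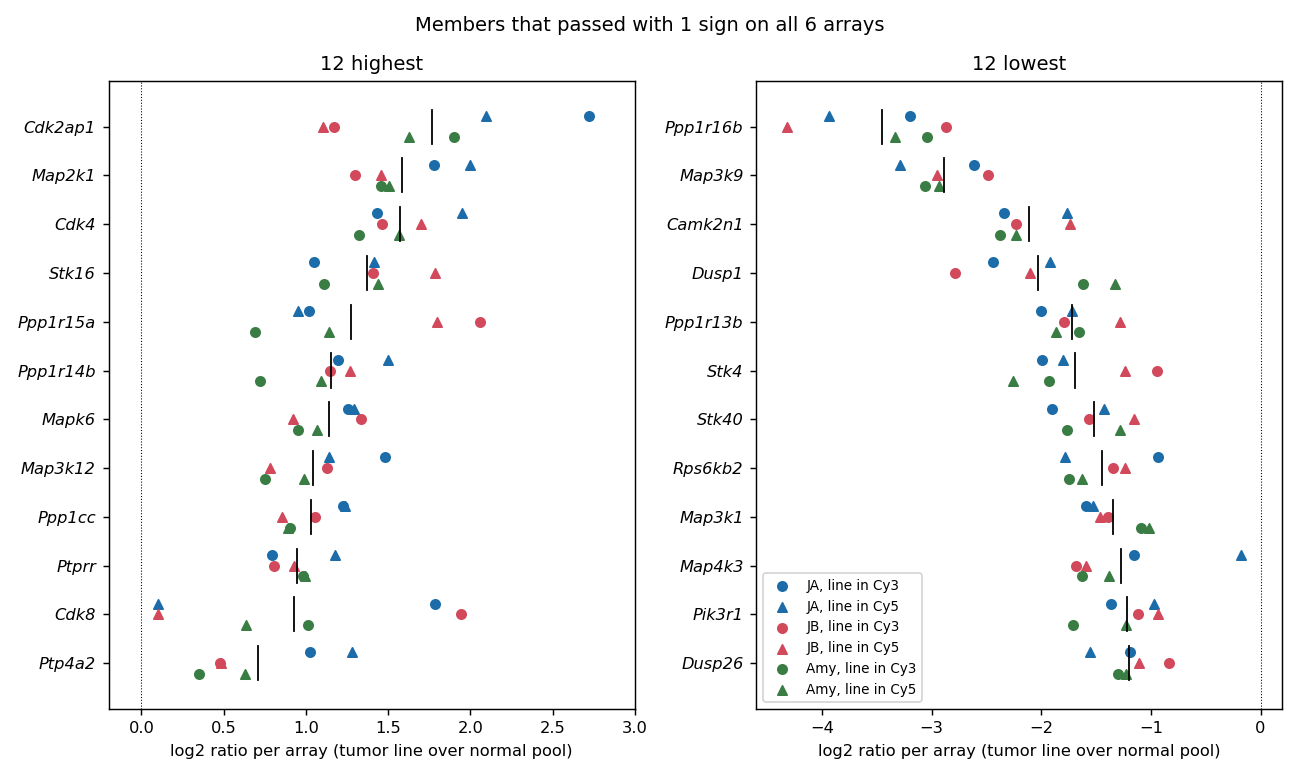
Log2 ratios of the 12 highest (left) and 12 lowest (right) members among those called with 1 sign on all 6 arrays; colours are the lines, circles are Cy3 arrays, triangles Cy5 arrays, and the bar is the mean over lines. Cdk4 spans only 1.43 to 1.95 within JA, while Cdk8 spans 0.10 to 1.78 there.

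Several dual-specificity phosphatases switch MAP kinases off. Of 8 dual-specificity genes none was higher, 4 were lower and 4 did not pass (median -0.20); an unadjusted p under 0.05 also gave 0 higher and 4 lower (limma). Over all features 20.7% were higher and 32.8% lower, and a count over 8 genes is not told apart from these shares here. Dusp1 (MKP-1), a nuclear phosphatase of p38, JNK and ERK whose promoter is printed above, stood at -2.44 and -1.92 (JA), -2.79 and -2.10 (JB) and -1.62 and -1.33 (Amy). All 6 ratios were beyond 2-fold, with JB lowest and Amy least reduced, and the mean was -2.03 ± 0.50 (adjusted p = 0.00169). The ERK-specific cytoplasmic Dusp6 stood at -1.06 and -0.03 (JA), -1.03 and -0.58 (JB) and -0.61 and -0.32 (Amy), and its mean of -0.61 ± 0.18 passed (adjusted p = 0.0132). That call was lost without JA (adjusted p = 0.0684), without the Cy3 array of JA (0.12) and on the Cy5 arrays alone (0.164). Dusp26, an atypical member, was lower at -1.19 and -1.55 (JA), -0.84 and -1.10 (JB) and -1.30 and -1.22 (Amy), a mean of -1.20 ± 0.21 (adjusted p = 0.00203).

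Dusp5, the nuclear ERK phosphatase, differed between the lines in both dye orientations. It stood at 0.48 and 0.70 (JA), -0.48 and -0.39 (JB) and 0.96 and 1.03 (Amy). JB was below the pool and Amy above it on both arrays, and the mean of 0.39 ± 0.73 did not pass (adjusted p = 0.301); without JB it was 0.79 (adjusted p = 0.0112). Dusp29, an atypical phosphatase known from muscle, was called lower at -0.37 ± 0.07 (adjusted p = 0.0413) with clones at -0.56 and -0.18, beside 6 of 7 muscle markers that were lower, whose part was not tested. The call was lost when the 6 arrays were fitted with line as a random block, both with the replicate number (the dye orientation) as a block (adjusted p = 0.0927) and without it (0.0932), with centred arrays (0.118), and without JA (0.116), JB (0.0965) or Amy (0.155); without single Cy5 arrays it was 0.251 (JA), 0.266 (JB) and 0.0741 (Amy), and on the Cy3 arrays alone 0.655. Dusp11, which acts on RNA, stood at 0.30 ± 0.16, Dusp13b at 0.23 ± 0.19 and Dusp18 at -0.03 ± 0.18; none passed, although Dusp11 did with centred arrays (adjusted p = 0.041).

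Around this cascade, the list of ERK switches and adaptors had 4 of 12 measured genes higher and 3 lower, with a median of 0.11. The 14-3-3 protein Ywhaq stood at 1.07 ± 0.27, the Raf inhibitor Pebp1 at 0.98 ± 0.07 and the GTPase Nras at 0.62 ± 0.17. The arrestin Arrb2 was lower at -0.95 ± 0.12, the kinase Araf at -0.63 ± 0.18 and the scaffold Ksr1 at -0.56 ± 0.36. Ksr1 stood at 0.02 on the Cy3 array of JB and passed narrowly (limma, adjusted p = 0.0427). In the list of immediate early and AP-1 genes, which respond to these pathways in many cells, 5 of 9 were higher (median 0.52), led by Ier3 at 2.07 ± 0.03, Ier5 at 1.08 ± 0.41 and Jund at 0.72 ± 0.43. The background shares are 20.7% higher and 32.8% lower.

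Class I PI3-kinase subunits were lower. The catalytic subunit Pik3ca (p110 alpha) stood at -0.96 and -1.22 (JA), -0.77 and -1.03 (JB) and -0.77 and -0.90 (Amy), and its regulatory partner Pik3r1 (p85 alpha) at -1.37 and -0.97 (JA), -1.12 and -0.94 (JB) and -1.71 and -1.23 (Amy). For both, no array reached the pool, and the means were -0.94 ± 0.13 and -1.22 ± 0.23 (adjusted p = 0.00296 and 0.00207). Pik3ip1, an inhibitor of this kinase, was called at -0.45 ± 0.22 (adjusted p = 0.0397), and the class III enzyme Pik3c3, which serves endosomes and autophagy, was called higher at 0.41 ± 0.12 (adjusted p = 0.0363). Those calls did not hold without JA (0.173 and 0.162), JB (0.0523 and 0.0732) or Amy (0.0871 and 0.0902), nor, for Pik3ip1, without any of 4 of the 6 single arrays (adjusted p up to 0.0632) and, for Pik3c3, any of 3 of them (up to 0.0912), and that of Pik3ip1 was lost with centred arrays (0.0891) and on the Cy3 arrays alone (0.0625), that of Pik3c3 on the Cy5 arrays alone (0.0822).

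Downstream, the ribosomal protein S6 kinases were split. Rps6kb2 was lower at -0.94 and -1.79 (JA), -1.35 and -1.24 (JB) and -1.75 and -1.63 (Amy), with a mean of -1.45 ± 0.21 (adjusted p = 0.00121) and clones at -1.20 and -1.69. Its relative Rps6kb1 was called higher, at 0.35 ± 0.04 (adjusted p = 0.0454). That call was lost without JA (0.165), JB (0.0889) or Amy (0.144), without 4 of the single arrays (up to 0.189) and on the Cy5 arrays alone (0.377). The ERK-activated Rps6ka2 (RSK3) fell to -0.67 ± 0.22 (adjusted p = 0.0119), a call lost without JA (0.0734) or Amy (0.0632). Rps6ka4 at -0.19 ± 0.12 and Rps6kc1 at 0.33 ± 0.08 did not pass; Rps6kc1 passed with centred arrays (adjusted p = 0.0233) and on the Cy5 arrays alone (0.0205). Of 11 measured partners of PI3-kinase, AKT and mTOR, 2 were higher and 4 lower (median -0.06). The translation repressors Eif4ebp1 and Eif4ebp2, both mTOR substrates, stood at 1.14 ± 0.45 and -2.59 ± 0.08. The phosphoinositide kinases Pip4k2c and Pip4k2a likewise had opposite signs, at 1.05 ± 0.34 and -1.15 ± 0.10, and the lipid phosphatase Inpp4a was lower at -1.16 ± 0.60.

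None of the 8 genes of PKA, PKC and AMPK passed (limma), beside 53.5% of all features, a difference that was not tested. At an unadjusted p under 0.05 there was 1, higher, and 0 passed in the fit with line as a random block and the dye orientation as a replicate block. The means ran from -0.43 to 0.39. Prkcz, an atypical PKC of cell polarity, stood at -0.31 and -0.94 (JA), -0.48 and -1.02 (JB) and 0.04 and 0.14 (Amy). It was below the pool in JA and JB and slightly above it in Amy, with a mean of -0.43 ± 0.45 (adjusted p = 0.122); without Amy the mean was -0.69 (adjusted p = 0.0375). The AMPK subunit Prkag1 stood at 0.51 and -0.15 (JA), 0.62 and 0.12 (JB) and 0.70 and 0.51 (Amy), with a mean of 0.39 ± 0.21 (adjusted p = 0.0605). It passed with centred arrays (adjusted p = 0.0275), on the Cy3 arrays alone (0.0146) and without the Cy5 array of JA (0.0267). The PKA regulatory subunits Prkar1a and Prkar2b stood at 0.22 ± 0.13 and 0.20 ± 0.18; the 2 clones of Prkar1a had opposite signs, at -0.26 and 0.70, and Prkar2b passed on the Cy5 arrays alone (0.50, adjusted p = 0.0366). The other 4 were Prkce at 0.05 ± 0.17, Prkci at 0.06 ± 0.18, Prkx at -0.15 ± 0.03 and Prkcel1 at 0.12 ± 0.18. In the list of cAMP genes around PKA, 2 of 11 were higher and 3 lower (median -0.24). The adenylyl cyclases Adcy2 and Adcy3, which make cAMP, stood at 1.33 ± 0.18 and 1.17 ± 0.15, while the phosphodiesterase Pde4b, which degrades it, was lower at -1.48 ± 0.58, the anchor protein Akap12 at -1.69 ± 0.55 and the cyclase Adcy4 at -0.73 ± 0.07.

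Among calmodulin kinase genes the inhibitor moved most. Camk2n1, a small protein that blocks CaMKII, stood at -2.34 and -1.77 (JA), -2.23 and -1.74 (JB) and -2.37 and -2.23 (Amy), beyond 2-fold on all 6 arrays, with a mean of -2.11 ± 0.17 (adjusted p = 0.000334). CaMKII itself was represented by Camk2a, the brain form, which stood at -0.16 ± 0.10 and did not pass (adjusted p = 0.281) except on the Cy5 arrays alone (-0.62, adjusted p = 0.0316). Camk4, a nuclear kinase that phosphorylates CREB, was called higher at 0.42 ± 0.12 (adjusted p = 0.0319), a call lost without JA (0.126) or Amy (0.136), without any single Cy5 array (up to 0.0679) and on the Cy3 arrays alone (0.0968). Camkv, which lacks kinase activity, was called lower at -0.71 ± 0.44 (adjusted p = 0.0299). It was lost without JA (0.0986), JB (0.0528) or Amy (0.0547), with centred arrays (0.0592), without 3 of the single arrays (up to 0.117) and on the Cy3 arrays alone (0.381).

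Calcineurin, the calmodulin-dependent phosphatase, had its gamma catalytic subunit Ppp3cc lower, at -0.98 and -1.20 (JA), -1.20 and -1.24 (JB) and -1.11 and -1.11 (Amy). All 6 arrays were below the pool, with little spread, and the mean was -1.14 ± 0.07 (adjusted p = 0.00151). The alpha subunit Ppp3ca stood at -0.35 and -0.41 (JA), -0.62 and -0.69 (JB) and -0.11 and -0.07 (Amy), a mean of -0.38 ± 0.28 that did not pass (adjusted p = 0.0875) but did when the 6 arrays were fitted with line as a random block, with the dye orientation as a replicate block (0.0453) or without it (0.027). The beta subunit Ppp3cb stood at -0.03 ± 0.18 (adjusted p = 0.878). Of 10 measured partners, 3 were higher and 5 lower (median -0.21). The calcineurin regulator Rcan2 was far lower at -6.66 ± 0.42, the calcium channel Itpr1 stood at -0.98 ± 0.07 and the calcineurin target Nfatc2 at -0.90 ± 0.17. In JA, Nfatc2 stood at 0.08 on the Cy3 array and -1.495 on the Cy5 array. The cyclophilin Ppia, Nfat5 and Itpr3 were higher at 1.51 ± 0.34, 1.46 ± 0.64 and 0.62 ± 0.41.

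Of 6 cyclin-dependent kinase genes 4 were higher and 2 did not pass, beside 20.7% higher and 32.8% lower over all features, and the family's median was 0.75. The calls of Cdk8 and Cdk9 were each lost in 1 dye orientation. No member of the family was lower at an unadjusted p under 0.05 either (limma). Cdk4, the G1 kinase that binds D-type cyclins and whose promoter is printed above, stood at 1.43 and 1.95 (JA), 1.47 and 1.70 (JB) and 1.32 and 1.57 (Amy). No array was below 1.32, the mean was 1.57 ± 0.12 (adjusted p = 0.000686), and its 3 clones stood at 1.43, 1.75 and 1.54. The highest member of all was Cdk2ap1, whose product binds CDK2 and is not a kinase, at 2.72 and 2.10 (JA), 1.17 and 1.10 (JB) and 1.90 and 1.63 (Amy). Its mean was 1.77 ± 0.64 (adjusted p = 0.00409), with JA above JB on both arrays. Cdk9, the elongation kinase of P-TEFb, was called at 0.57 ± 0.11 (adjusted p = 0.0124), but its clones differed, at 0.08 and 1.06, and the first alone did not pass (adjusted p = 0.64). The call was also lost without JA (0.0741), without the Cy5 array of Amy (0.0655) and on the Cy3 arrays alone (0.122).

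Cdk8, the kinase of the Mediator complex, depended on the dye. It stood at 1.78 and 0.10 (JA), 1.95 and 0.10 (JB) and 1.01 and 0.64 (Amy), with a mean of 0.93 ± 0.10 (adjusted p = 0.00277). Over the Cy3 arrays the mean was 1.58 and over the Cy5 arrays 0.28, where it did not pass (adjusted p = 0.219), and it did not pass without the Cy3 array of JA (0.0584) or of JB (0.0519). The PCTAIRE kinases Cdk16 and Cdk18 stood at 0.06 ± 0.16 and -0.15 ± 0.35 and did not pass. In the list of cyclins, inhibitors and other CDK regulators, which also holds Cdk1, 7 of 12 were higher and 1 lower (median 0.83). The kinase Cdk1, left out of the members, was 1 of the 7, at 2.91 ± 0.47. Cyclin E1 (Ccne1), a partner of CDK2, stood at 3.08 ± 0.53. The D-type cyclins, partners of Cdk4, were all higher, Ccnd1 at 1.39 ± 0.10, Ccnd2 at 1.23 ± 0.57 and Ccnd3 at 0.89 ± 0.26; Ccnd2 and Ccnd3 were picked for naming after their values were seen. Cyclin B2 (Ccnb2) was lower, at -1.81 ± 0.50.

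Among the Stk genes 2 of 7 were higher, 4 lower and 1 did not pass (median -0.75). Of all features 20.7% were higher and 32.8% lower, and the difference was not tested. Stk4 (MST1), a kinase of the Hippo pathway, stood at -1.99 and -1.80 (JA), -0.94 and -1.24 (JB) and -1.93 and -2.25 (Amy). JB was the least reduced line on both arrays, and the mean was -1.69 ± 0.53 (adjusted p = 0.00316). Stk38 (NDR1), a further Hippo-related kinase, fell to -0.75 ± 0.36 (adjusted p = 0.017), lost without JA (0.0983), without the Cy5 array of Amy (0.138) and on the Cy3 arrays alone (0.231). The pseudokinase Stk40 was lower at -1.90 and -1.43 (JA), -1.57 and -1.15 (JB) and -1.76 and -1.29 (Amy), with a mean of -1.52 ± 0.15 (adjusted p = 0.000842). Stk10, a kinase of lymphocytes and of ezrin family proteins, fell to -0.84 ± 0.27 (adjusted p = 0.00739), a call lost without JA (0.0606). Of the leukocyte markers 8 of 9 were lower too, and their part in this was not tested.

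Higher in this group was Stk16, a Golgi-associated kinase, at 1.05 and 1.42 (JA), 1.41 and 1.79 (JB) and 1.11 and 1.44 (Amy). All arrays exceeded 2-fold, the mean was 1.37 ± 0.20 (adjusted p = 0.00137), and the clones stood at 1.26 and 1.47. Stk11 (LKB1), the tumor suppressor kinase upstream of AMPK, was called at 0.45 ± 0.02 (adjusted p = 0.0223). Its line means were close, but its call was lost without JA (0.0952), JB (0.0554) or Amy (0.0923), and without the Cy5 array of JB (0.129) or of Amy (0.0638), and on the Cy3 arrays alone (0.18). Stk19 stood at 0.15 ± 0.31 and did not pass. Of the casein kinases, the CK2 subunit Csnk2a1 stood at -0.57 and -0.90 (JA), -0.19 and -0.59 (JB) and -1.06 and -1.06 (Amy). Its mean of -0.73 ± 0.33 passed (adjusted p = 0.0162), though not without JA (0.0928) or Amy (0.0741). Csnk1g2 was called at -0.47 ± 0.27 (adjusted p = 0.0461) and lost that call without JA (0.193) or JB (0.132), with centred arrays (0.111), with quantile normalization (0.0514) and without 5 of the single arrays (up to 0.144) and on the Cy3 arrays alone (0.276); Csnk1g3 stood at -0.07 ± 0.04.

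Both measured PP1 catalytic subunits were higher, beside 20.7% of all features, a difference that was not tested. Ppp1cc stood at 1.22 and 1.24 (JA), 1.06 and 0.85 (JB) and 0.90 and 0.89 (Amy), a mean of 1.03 ± 0.18 (adjusted p = 0.00274), and its 2 clones were close, at 1.05 and 1.01. Ppp1ca stood at 0.32 and 0.50 (JA), 0.55 and 0.34 (JB) and 0.39 and 0.66 (Amy), a mean of 0.46 ± 0.06 (adjusted p = 0.0211). Its 3 clones did not fall together, at 0.75, -0.12 and 0.75, and leaving out JA (0.0857) or Amy (0.0958) ended its call. Cross-hybridization between close relatives such as these was not tested.

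Regulatory subunits of PP1 reached the widest range of any family: 3 of 10 were higher, 3 lower and 4 did not pass. The counts stand beside 20.7% higher and 32.8% lower over all features. Ppp1r16b (TIMAP), a membrane-bound subunit known from endothelial cells, was the lowest member of all, at -3.20 and -3.94 (JA), -2.87 and -4.32 (JB) and -3.04 and -3.33 (Amy). Its mean was -3.45 ± 0.23 (adjusted p = 0.000109), or 10.9-fold lower than in the pool, with the Cy5 array below the Cy3 array in each line. Ppp1r13b (ASPP1), which binds p53, stood at -2.0 and -1.72 (JA), -1.79 and -1.28 (JB) and -1.65 and -1.86 (Amy) (mean -1.72 ± 0.17, adjusted p = 0.000624). Ppp1r37 fell to -0.76 ± 0.24 (adjusted p = 0.00883), lost without JA (0.0584).

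The higher ones were Ppp1r15a (GADD34), which directs PP1 to the initiation factor eIF2 alpha, the inhibitor Ppp1r14b and the inhibitor Ppp1r11. Ppp1r15a stood at 1.02 and 0.95 (JA), 2.06 and 1.80 (JB) and 0.69 and 1.14 (Amy). JB was the highest line, and the mean was 1.28 ± 0.57 (adjusted p = 0.00827). Ppp1r14b stood at 1.20 and 1.5 (JA), 1.15 and 1.27 (JB) and 0.72 and 1.09 (Amy), with a mean of 1.16 ± 0.23 (adjusted p = 0.00246). Ppp1r11 was called at 0.70 ± 0.14 (adjusted p = 0.00726), lost without JA (0.057). Ppp1r10 (PNUTS), a nuclear PP1 subunit, stood at 1.52 and 1.56 (JA), 0.34 and 0.13 (JB) and 0.41 and 0.42 (Amy). It was the sole member in which 1 line differed by at least 2-fold from both others in both dye orientations, with JA on top; JA did so in 0.0696% of all features. No member had JA below both others (0.292% of features), JB above (1.3%) or below them (0.696%), or Amy above (0.306%) or below them (0.195%). The mean of 0.73 ± 0.71 did not pass (adjusted p = 0.0757), but did in the fit of 6 arrays with line as a random block, with (0.037) or without (0.0227) the dye orientation as a replicate block, and without JB (0.98, adjusted p = 0.0254). The inhibitors Ppp1r1a and Ppp1r1b (DARPP-32) and the subunit Ppp1r35 stood at -0.06 ± 0.23, -0.13 ± 0.53 and -0.08 ± 0.04.

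PP2A genes stayed near the pool. Of 8 measured, 1 was called, beside 53.5% of all features, a difference that was not tested. It was the catalytic subunit Ppp2ca, at -0.65 and -0.65 (JA), -0.70 and -0.49 (JB) and -0.82 and -0.78 (Amy). Its mean was -0.68 ± 0.10 (adjusted p = 0.00699). The second catalytic subunit, Ppp2cb, stood at -0.05 ± 0.06 (adjusted p = 0.741) over 3 clones, which ran from -0.23 to 0.17. The scaffolds Ppp2r1a and Ppp2r1b stood at -0.003 ± 0.14 and 0.23 ± 0.24, the B-type subunits Ppp2r2b, Ppp2r2d and Ppp2r5e at -0.03 ± 0.33, -0.12 ± 0.21 and 0.22 ± 0.12, and the activator Ptpa at -0.004 ± 0.07. The 2 clones of Ppp2r5e had opposite signs, at 0.66 and -0.21, and the first alone passed (adjusted p = 0.00783). Ptpa matched the symbol pattern but is not a tyrosine phosphatase.

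Genes of PP4, PP5 and PP6 were called lower, while the PPM1 gene did not pass. Ppp4r3a, a PP4 subunit, stood at -1.22 and 0.17 (JA), -1.39 and -0.46 (JB) and -0.80 and -0.28 (Amy), with a mean of -0.66 ± 0.23 (adjusted p = 0.0125); the call was lost without JA (0.0568), without the Cy3 array of JA (0.188) and on the Cy5 arrays alone (0.395). Ppp6r2 stood at -0.32 and -0.47 (JA), -0.33 and -0.19 (JB) and -0.53 and -0.39 (Amy) (mean -0.37 ± 0.10, adjusted p = 0.0446) and Ppp5c at -0.50 and -0.05 (JA), -0.87 and 0.05 (JB) and -0.71 and -0.02 (Amy) (mean -0.35 ± 0.07, adjusted p = 0.0492). Neither call held without JA (0.161 and 0.128), JB (0.0623 and 0.136) or Amy (0.168 and 0.157), or with centred arrays (0.119 and 0.151). Leaving out any single array ended the call of Ppp6r2 (up to 0.0892), and any of 5 that of Ppp5c (up to 0.323). On the Cy5 arrays alone neither passed (0.0849 and 0.969), and Ppp6r2 did not pass on the Cy3 arrays alone either (0.0608). Ppm1f, a phosphatase of calmodulin kinases, stood at 0.65 and 0.15 (JA), -0.69 and -1.17 (JB) and -0.12 and -0.07 (Amy). JA was above the pool and JB below it on both arrays, and the mean of -0.21 ± 0.67 did not pass (adjusted p = 0.542).

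Tyrosine phosphatases had 3 of 8 higher, 1 lower and 4 that did not pass (median 0.19). Among all features 20.7% were higher and 32.8% lower, and the difference was not tested. Ptprr, a receptor-type phosphatase that binds ERK, stood at 0.79 and 1.18 (JA), 0.81 and 0.93 (JB) and 0.98 and 0.99 (Amy). All 6 arrays were above the pool, and the mean was 0.95 ± 0.07 (adjusted p = 0.00248). Ptpra, which activates Src kinases by removing an inhibitory phosphate, fell to -0.72 ± 0.10 (adjusted p = 0.00585). Ptp4a2 (PRL-2) stood at 1.03 and 1.28 (JA), 0.48 and 0.49 (JB) and 0.35 and 0.63 (Amy), with a mean of 0.71 ± 0.39 (adjusted p = 0.0227), and JA was the highest line. Without JA its adjusted p was 0.0839 and without Amy 0.0595, so neither fit kept the call. The mitochondrial Ptpmt1 was called at 0.46 ± 0.17 (adjusted p = 0.0295), lost without JA (0.144), JB (0.0681) or Amy (0.0589) and without the Cy5 array of JB (0.0549), and on the Cy3 arrays alone (0.0557).

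The best known cytoplasmic tyrosine phosphatases did not pass. Ptpn11 (SHP2), which promotes RAS signaling, stood at 0.60 and 0.20 (JA), 0.44 and 0.12 (JB) and 0.20 and 0.15 (Amy), a mean of 0.28 ± 0.11 (adjusted p = 0.095; 0.0359 with centred arrays). Ptpn1 (PTP1B), a phosphatase of the insulin receptor, stood at -0.22 and -0.09 (JA), 0.42 and -0.01 (JB) and -0.26 and -0.24 (Amy), a mean of -0.07 ± 0.24 (adjusted p = 0.717). Ptpn7, known from blood cells, stood at -0.18 ± 0.15, and passed on the Cy5 arrays alone (-0.51, adjusted p = 0.0424). Ptpn21 gave no common direction: -0.21 and -1.10 (JA), 2.11 and -2.06 (JB) and 2.45 and -0.66 (Amy).

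Line by line, a ratio of at least 2-fold on both arrays was reached by 10 members above and 9 below the pool in JA, against 7.42% and 13.6% of all features. In JB 6 were above and 10 below, against 5.93% and 11.4%, and in Amy 4 were above and 15 below, against 4.97% and 12%. A single line has no replicate, so these are sizes without a test. The 3 lines share the pool, so their ratios are not independent. On all 6 arrays, 4 members were at least 2-fold higher (4.4%, against 2.83% of features) and 7 lower (7.69%, against 8.12%). The 4 were Cdk2ap1, Cdk4, Map2k1 and Stk16, and the 7 were Ppp1r16b, Map3k9, Camk2n1, Dusp1, Ppp1r13b, Stk40 and Map3k1.

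**Figure D3:**
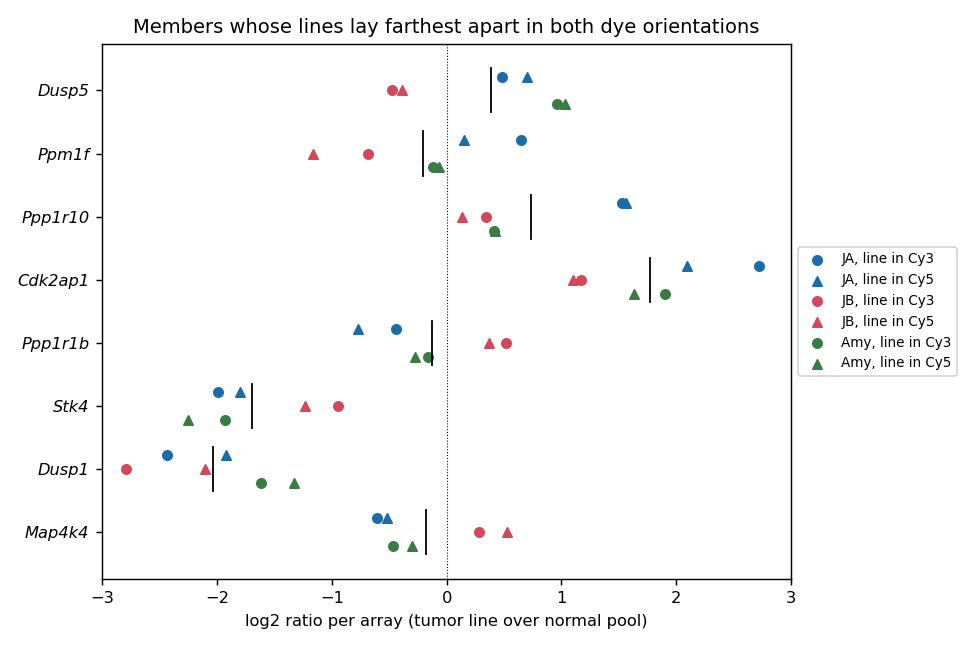
Log2 ratios per array for the 8 members whose highest and lowest line differed by over 0.75 in both dye orientations; colours are lines, circles and triangles are Cy3 and Cy5 arrays, and the bar is the mean over lines. Dusp5 has Amy and JA right of 0 and JB left of it, and Ppp1r10 has JA at 1.52 and 1.56.

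These 8 members were picked after their values were seen, and JB was at an end of the range in each of the 8. Over all features too, JB was the line most often 2-fold apart from both others. It was above them in 1.3% and below them in 0.696%, against 0.0696% and 0.292% for JA and 0.306% and 0.195% for Amy. The place of JB in the 8 is thus not particular to these genes. By line means, JB was the lowest line for Dusp5, Ppm1f, Ppp1r10, Cdk2ap1 and Dusp1, and the highest for Map4k4, Ppp1r1b and Stk4. DARPP-32 (Ppp1r1b), a PP1 inhibitor studied in neurons and in gastrointestinal tumors, stood at -0.44 and -0.77 (JA), 0.52 and 0.37 (JB) and -0.16 and -0.27 (Amy). Differences between single lines were not tested.

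For 4 members (4.4%) the 2 dye orientations differed by over 0.5 in the same direction in each line, against 8.51% of all features, and for 9 members (9.89%) the 2 arrays of at least 1 line differed by over 1, against 16.0% of features.

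**Figure D4:**
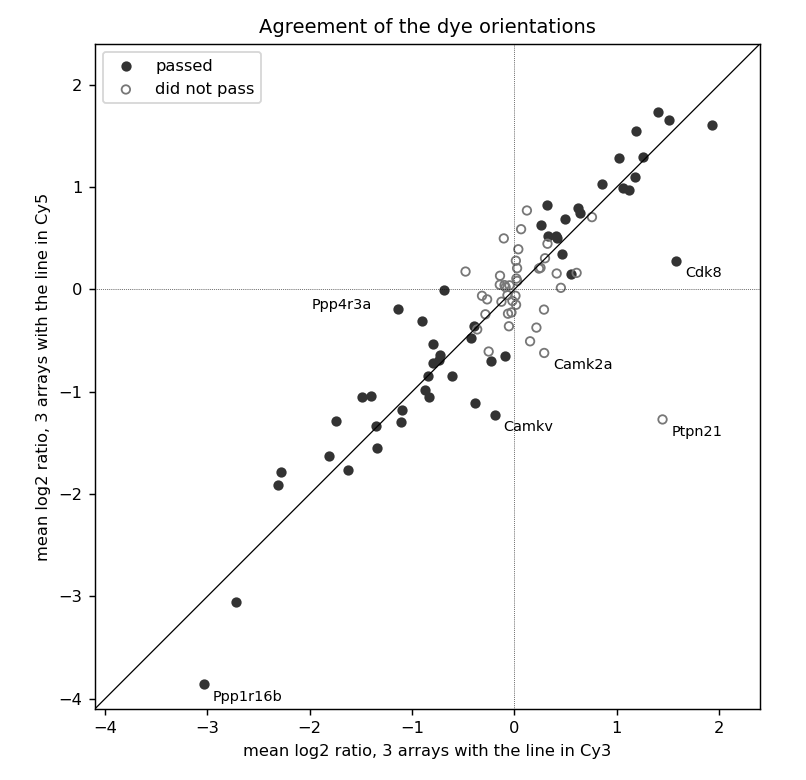
Mean log2 ratio of each member over its 3 Cy3 arrays (horizontal) against its 3 Cy5 arrays (vertical); filled points passed, open points did not, and the diagonal marks equal values. Most members lie near the diagonal, while Ptpn21 stood at 1.45 and -1.27 and Cdk8 at 1.58 and 0.28.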

How the data were processed

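Total RNA of each tumor line was hybridized against that of the normal pool on rat cDNA arrays of 8064 clones, each spotted 2 times (16128 spots). Per the labels, each line was hybridized in both dye orientations. The deposited values are log ratios, taken here as log2 because their lowest value, -12.73, exceeds what a scanner allows in other bases. Direction (line over pool) follows the order of names in the titles. Scanner, background correction, normalization, filters and log base are not given in the sources used here. Intensities were not used, so signal over background is unknown.

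Array medians ran from -0.17 to -0.05 and were left as deposited. Spots were averaged per gene symbol of the platform annotation, or per clone where no single symbol was given (8084 spots had 1 symbol, 40 several and 8004 none), which gave 7180 features. The 91 members came from 112 clones, 73 of them from 1 clone, and all 91 symbols matched the rat GRCr8 gene table. The arrays of a line were averaged, and the 3 line means were tested against 0 with limma 3.58.1 in R 4.3.3 (two-sided, Benjamini-Hochberg over all features, threshold 0.05). Tested on simulated data for 3 lines against the pool over 7180 features, this recovered 94% of 50 features changed by 2 in log2. The share was 50% at 1 and 0% at 0.5 or 0.25. Far fewer features were changed there than the 3843 called in the data, which makes the adjusted p stricter in the simulation. These shares are therefore no detection limit for the data.

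The replicate number pairs arrays by dye orientation, per the labels. Deviations of same-numbered arrays from their line means correlated at 0.53 to 0.61 between lines, so a fit of the 6 arrays with line as a random block and this number as a block is given where it changes a call, beside the same fit without this number. The 2 arrays of a line correlated at 0.84 (JA), 0.82 (JB) and 0.89 (Amy) over all features.

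The members, gene lists and tests were chosen with earlier results of these data known. Array values are given for the 12 highest and 12 lowest members called with 1 sign on all arrays, the member with the largest mean size in each family, members with a line apart, and fixed well-known genes. Families were taken by symbol prefix for this choice, so AMPK, PP4, PP5, PP6 and PPM1 each gave a member. A few more were added after their values were seen (Dusp5, Map4k4, Ppp1r1b and Ptpn21). Alternatives were centring, quantile normalization, blocks, 1 dye orientation, left-out lines and arrays, first clones, no variance moderation, a standard error widened for the pool as if it varied like 2 averaged lines, a threshold of 0.01, a filter on dye disagreement and a 1.5-fold size. Promoter sequences are from RefSeq, GRCr8.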

Additional observations from a re-analysis of the deposited data

Results flagged for a closer look

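In 10 members both arrays of 1 line lay above the pool and both arrays of another below it. These differences between line means were not tested, since each line is a single sample. Dusp5, the nuclear ERK phosphatase, stood at 1.00 in Amy and -0.43 in JB, a difference of 1.43. The phosphatase Ppm1f stood at 0.40 in JA and -0.93 in JB, a difference of 1.32. JB was above JA for 3 members: the PP1 inhibitor Ppp1r1b by 1.05, the kinase Map4k4 by 0.97 and the PP2A subunit Ppp2r2b by 0.59. JB was above Amy for the kinase Cdk18, by 0.69, and for the PP1 inhibitor Ppp1r1a, by 0.45. Amy was above JB for the atypical PKC Prkcz, by 0.84, for Stk19 by 0.56 and for Cdk16 by 0.30. None of the 10 was called over the 3 lines, but picking members with opposite signs makes a call unlikely by construction. The same count was not made over all features.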

How the results depend on the processing

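The count of 51 called members (21 higher, 30 lower) was 17 (8 and 9) without moderation of the variances, 26 (10 and 16) with the standard error widened for the pool as if it varied like 2 averaged lines, and 31 (12 and 19) at a threshold of 0.01. Leaving out a line or an array gave 28 to 48 called, 11 to 21 higher and 17 to 28 lower, the lowest counts without JA. Over all features the 3843 calls became 1040, 1970 and 2290 under the first 3 settings and 2076 to 3716 with a line or array left out. Fewer residual degrees of freedom, a wider standard error and a stricter threshold lower counts by construction. With the 6 arrays fitted with line as a random block and the dye orientation as replicate block, 52 members were called: 50 kept, Dusp29 lost (adjusted p = 0.0927), and Ppp1r10 (0.037) and Ppp3ca (0.0453) gained, with no other call changed. The random block with no replicate block made the same 3 changes (0.0932, 0.0227 and 0.027). The part of the dye orientation in these changes was not tested. This second fit kept 48 calls, also lost Camkv (0.0597) and Ppp5c (0.132), and gained Dusp11 (0.0428). Centring kept 45, lost 6 and gained 4 calls. At 1.5-fold rather than 2-fold, 33 members reached the size on both arrays in JA, 29 in JB and 33 in Amy, against 19, 16 and 19. The mean of Ptpn21, 0.09, was -1.27 (adjusted p = 0.018) over the Cy5 arrays alone; the cause was not tested. Of the 51 calls, 28 were kept without each line and 13 under all of the 20 alternatives that tested them. Ppp1r16b, among these 13, was left out by the filter on dye disagreement and so was tested in 19. The number of lines limits precision. In simulated data changes of 0.5 or less were not recovered, but only 50 features per size were changed there. With 3843 features called, the adjusted p was less strict in the data, and smaller means passed, such as Rps6kb1 at 0.35. The simulated shares are thus no detection limit for these data.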

Other observations

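The tyrosine phosphatase Ptpn21 had 2.11 and -2.06 in JB and 2.45 and -0.66 in Amy with the line in Cy3 and Cy5. Of all 91 members, 30 had a mean within 0.25 of the pool, and 14 stayed within 0.5 of it on all 6 arrays. No matching counts were made over all features, so these do not set the members apart from the array.

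In the promoters, the GC box GGGCGG, searched on both strands, was found for 55 of 78 members (70.5%), against 33.1% of all promoters. Its share was 55.6% of 18 members called higher, 68.0% of 25 called lower and 80.0% of 35 not called. The E2F letters TTTNGCGC were found for 0 of 78 members and in 1.28% of all promoters. Here too all promoters are every entry of the promoter table and the members are named array genes. The sets are unlike, and the differences in share were not tested.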
